A study of Homo sapiens with 3 samples.

Results

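ISG15 is a small protein built from a pair of ubiquitin-like folds, and cells attach it to other proteins by a dedicated enzyme chain. UBA7 activates it, UBE2L6 carries it, and the ligase HERC5 transfers it to targets in human cells. HERC6 is a close relative of HERC5 and acts as the main ISG15 ligase in the mouse, and USP18 is the protease that removes ISG15 from its targets and also restrains signalling from the type I interferon receptor. All 6 genes are known to be induced by interferon, including in epithelial cells.

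The ISG15 pathway was defined as every probe set that the platform annotation maps to ISG15, UBA7, UBE2L6, HERC5, HERC6 or USP18 alone, with no filter on level. Of the 6 genes, 5 had such a probe set, among 19775 genes on the array. They held 6 of 54613 probe sets, with 2 for HERC6 and 1 for each of the others. UBA7 had none of its own, because both of its probe sets are annotated to MIR5193 as well.

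The study used HCT116, an established human colorectal carcinoma cell line, infected with lentivirus carrying a short hairpin RNA. One group carried hairpins against UHRF1, a chromatin protein that binds hemimethylated DNA and histone H3 tails and is needed to maintain DNA methylation, and its 2 arrays hold UHRF1 hairpin 2 and UHRF1 hairpin 5. The control group is 1 array of cells with a scrambled hairpin. All cells, the control included, went through infection and 6 days of puromycin selection before harvest.

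No hairpin was measured on a second array, so a difference seen with 1 hairpin has no replicate check, and what belongs to that hairpin, to its culture or to its array cannot be told apart. Both hairpins are set against the same control array, and the labels do not say whether the cultures were handled in parallel. Values are log2 levels as deposited, differences are hairpin minus scrambled control on that scale unless stated otherwise, and a probe set is called where it differs at least 2-fold. UHRF1 itself (225655_at) read 6.20 with hairpin 2 and 6.67 with hairpin 5, against 8.54 in the scrambled control. The array medians were 2.977 with hairpin 2, 3.044 with hairpin 5 and 3.002 in the scrambled control. The epithelial markers EPCAM, KRT8, KRT18 and KRT19 were at 9.93 or above on all arrays, but the rest of that list read lower. CDH1 lay between 6.16 (scrambled control) and 7.15 (hairpin 2) on its brightest probe set, and between 2.71 and 2.87 on its other one. CDX1 lay between 4.53 (hairpin 2) and 4.66 (scrambled control), and CDX2 between 4.46 (scrambled control) and 4.89 (hairpin 5). CEACAM5 was at 3.54 with hairpin 2, 3.97 with hairpin 5 and 3.98 in the scrambled control. The 6 measured leukocyte markers stayed between 2.40 and 3.09. Their summed level was 16.25 with hairpin 2, 16.61 with hairpin 5 and 16.17 in the scrambled control, with PTPRC at 2.55, 2.75 and 2.51 on those arrays. Fibroblast and endothelial markers summed to 27.40, 27.73 and 26.81, with COL1A1 highest at 6.39, 5.75 and 5.82 on its brightest probe set. As the mean over its 5 probe sets COL1A1 differed by 0.22 with hairpin 2 and 0.07 with hairpin 5. Of the epithelial markers, KRT8 differed by 0.41 with hairpin 2 and 0.86 with hairpin 5, and CDH1 by 0.98 and 0.17, or by 0.47 and 0.14 as the mean of its 2 probe sets.

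The windows around the annotated starts of ISG15, HERC5, HERC6 and UBE2L6 are shown because several of these genes were higher together with 1 hairpin. They are RefSeq sequences of build GRCh38.p14, from 250 bases before the start to 50 after it, 5′ to 3′ along the gene. The sequences available held no window for UBA7 or USP18, so neither gene was searched. Capitals mark matches to GAAANNGAAA, the core repeat of the interferon-stimulated response element, or to its reverse complement TTTCNNTTTC.
ISG15, chr1:1013247-1013546, plus strand: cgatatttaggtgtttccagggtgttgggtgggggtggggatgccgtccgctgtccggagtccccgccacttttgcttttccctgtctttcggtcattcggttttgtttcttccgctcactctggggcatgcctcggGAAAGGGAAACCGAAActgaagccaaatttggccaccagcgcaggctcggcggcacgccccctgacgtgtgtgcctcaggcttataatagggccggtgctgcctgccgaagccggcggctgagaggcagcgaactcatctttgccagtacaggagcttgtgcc
HERC5, chr4:88456869-88457168, plus strand: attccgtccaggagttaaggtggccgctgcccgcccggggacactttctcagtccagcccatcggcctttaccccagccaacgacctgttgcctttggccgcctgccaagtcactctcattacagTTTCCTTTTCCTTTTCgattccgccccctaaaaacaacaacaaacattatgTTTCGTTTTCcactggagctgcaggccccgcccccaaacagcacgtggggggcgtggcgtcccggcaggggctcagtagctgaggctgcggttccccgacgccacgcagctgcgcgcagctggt
HERC6, chr4:88378602-88378901, plus strand: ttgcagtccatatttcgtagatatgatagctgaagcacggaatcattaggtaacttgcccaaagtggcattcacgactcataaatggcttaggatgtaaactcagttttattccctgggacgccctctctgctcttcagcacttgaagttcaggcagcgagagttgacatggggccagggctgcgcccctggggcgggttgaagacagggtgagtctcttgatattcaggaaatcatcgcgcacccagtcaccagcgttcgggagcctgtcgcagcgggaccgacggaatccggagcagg
UBE2L6, chr11:57567886-57568185, minus strand: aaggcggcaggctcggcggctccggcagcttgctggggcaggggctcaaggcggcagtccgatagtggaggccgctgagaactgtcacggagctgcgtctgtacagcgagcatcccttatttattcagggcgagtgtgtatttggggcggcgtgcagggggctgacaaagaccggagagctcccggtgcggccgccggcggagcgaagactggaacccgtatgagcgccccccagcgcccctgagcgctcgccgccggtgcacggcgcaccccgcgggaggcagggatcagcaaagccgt

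The ISG15 window held 2 overlapping matches, which begin 113 and 107 bases before the start. The HERC5 window held 3 matches, all read as the reverse complement, of which 2 overlap, beginning 125, 119 and 74 bases before the start. None was found in the HERC6 window or in either of the UBE2L6 windows, of which the first is printed. Of 35116 windows of the same length in the RefSeq table, 3.57% held the repeat on either strand. A second motif, TTCNNNGAA, which is the palindromic core of the STAT-binding gamma-activated site, had no match in any of these windows and occurred in 7.66% of all of them. The ISG15, HERC5 and HERC6 windows held 20, 21 and 16 CpG dinucleotides, and the UBE2L6 windows 32 and 41, against a median of 14 over all windows. These matches describe letters in the reference sequence, and neither binding nor methylation was measured here.

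The modifier itself was the most changed member. ISG15 (205483_s_at) read 12.92 with hairpin 2 and 10.35 with hairpin 5, against 10.17 in the scrambled control. The hairpin 2 array thus stood 6.69-fold above the control, and the hairpin 5 array lay 1.13-fold above it. Of all 54613 probe sets, 22 had a larger difference with hairpin 2, whereas 23.5% had a larger difference with hairpin 5. The gene was already bright in control cells, where 98.7% of probe sets read lower, and with hairpin 2 this share was 99.8%. These are levels in RNA of whole cultures, so more cells with the transcript and more transcript per cell cannot be told apart.

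UBE2L6, the conjugating enzyme that carries ISG15, was the member with the largest difference under hairpin 5. Its probe set (201649_at) read 7.69 with hairpin 2 and 6.93 with hairpin 5, against 6.35 in the scrambled control. That is 2.52-fold above the control with hairpin 2 and 1.49-fold with hairpin 5, where it fell short of the 2-fold call. With hairpin 5, 1.76% of all probe sets had a larger difference. UBE2L6 was also the gene whose hairpins lay closest together among the members called with hairpin 2, at 0.76 apart.

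The ligase HERC5 (219863_at) read 7.22 with hairpin 2 and 5.15 with hairpin 5, against 5.09 in the scrambled control. It was 4.38-fold above the control with hairpin 2, while hairpin 5 and the control differed by 0.06. Of all probe sets, 47 had a larger difference with hairpin 2.

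HERC6, the neighbour of HERC5 on chromosome 4, gave different readings on its 2 probe sets. The brighter one (219352_at) read 4.69 with hairpin 2 and 3.80 with hairpin 5, against 3.67 in the scrambled control, so hairpin 2 passed the 2-fold call narrowly at 2.03-fold. The dimmer one (1563659_at) read 2.46 and 2.45 with hairpins 2 and 5, against 2.33 in the scrambled control. It lay below the lower quartile of each array (2.54, 2.59 and 2.57), where the values may be background, as the table carries no detection calls. As the mean of both probe sets HERC6 differed by 0.57 with hairpin 2, which ends its 2-fold call, and by 0.13 with hairpin 5.

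The deconjugating protease USP18 (219211_at) read 4.89 with hairpin 2 and 3.83 with hairpin 5, against 3.59 in the scrambled control. This was 2.47-fold above the control with hairpin 2 and 1.18-fold with hairpin 5. The eraser of the modification was thus higher on the same array as the modifier, the carrier and the ligases.

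For UBA7, the activating enzyme, no value can be assigned to the gene alone. The probe set 203281_s_at, annotated to UBA7 and MIR5193, read 3.67 with hairpin 2 and 3.12 with hairpin 5, against 3.13 in the scrambled control. The other shared probe set, 1294_at, read 2.87 with hairpin 2 and 3.12 with hairpin 5, against 2.92 in the scrambled control. Neither reached 2-fold with either hairpin. Which of the annotated genes they read cannot be told from the annotation.

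**Figure D1:**
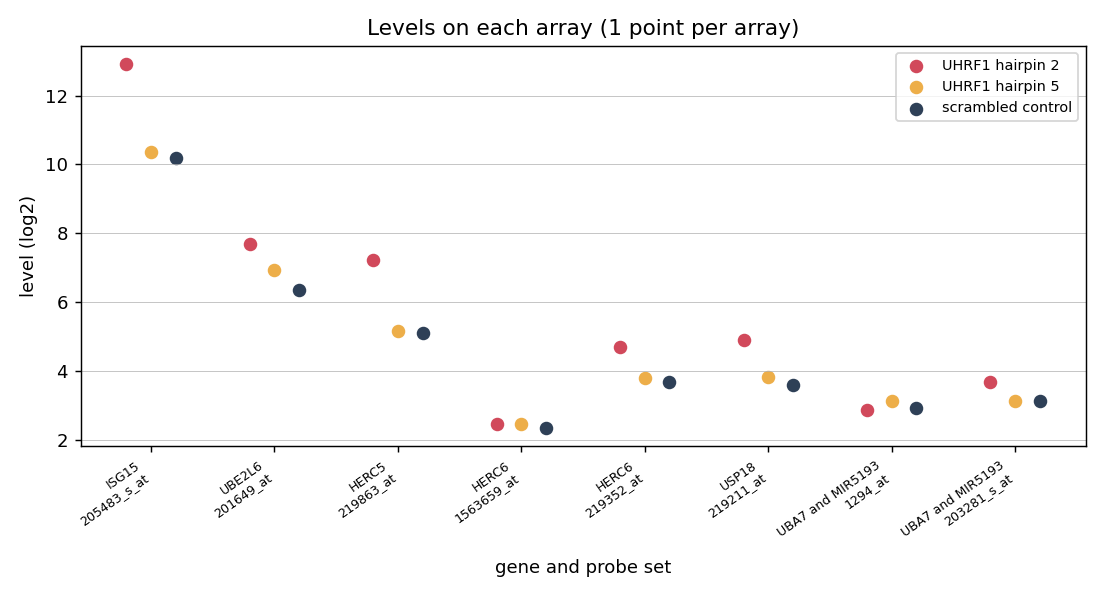
Log2 level (vertical axis) of each member probe set and of the probe sets shared by UBA7 and MIR5193 (horizontal axis), with 1 point per array for UHRF1 hairpin 2, UHRF1 hairpin 5 and the scrambled control. For 5 of the 6 member probe sets the hairpin 2 point stands apart above the others, while the hairpin 5 and control points lie within 0.57 of each other.

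Across the pathway, 5 of 6 member probe sets were at least 2-fold higher with hairpin 2 than in the scrambled control, where 0.558% of all probe sets were. The exception was the dim HERC6 probe set. With hairpin 5, 0 of 6 were at least 2-fold higher, against 0.135% of all probe sets. All 6 lay above the control with both hairpins, if only by 0.06 for HERC5 under hairpin 5, and 31.7% of all probe sets did so. The median difference over the 6 was 1.32 with hairpin 2 and 0.15 with hairpin 5, against −0.01 and 0.01 over all probe sets.

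Set directly against each other, hairpin 2 exceeded hairpin 5 at least 2-fold for 3 of 6 member probe sets, those of ISG15 (5.93-fold), HERC5 (4.20-fold) and USP18 (2.09-fold). The background for this contrast was 1.14% of all probe sets. The brighter HERC6 probe set differed by 1.86-fold and UBE2L6 by 1.70-fold. UHRF1 transcript was itself lower with hairpin 2 than with hairpin 5, by 0.47 on the log2 scale, and the part of this gap in the pathway's difference was not tested.

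Treated as replicates of UHRF1 depletion, the hairpins did not give a call. The mean difference was 1.46 ± 1.82 for ISG15, 1.10 ± 1.46 for HERC5 and 0.95 ± 0.54 for UBE2L6 (SD, n = 2 hairpins). USP18 stood at 0.77 ± 0.75, and the brighter HERC6 probe set at 0.58 ± 0.63 (SD, n = 2 hairpins). In ISG15, HERC5 and HERC6 the spread between hairpins was thus larger than the mean difference. The adjusted p was 1 for every member probe set in limma's moderated test, with Benjamini-Hochberg adjustment over all 54613. The lowest unadjusted p among them was 0.071, for UBE2L6. In that fit 0 probe sets of the whole array passed an adjusted p of 0.05 (0%), and 1595 had an unadjusted p under 0.05. The exact two-sided permutation test over the 3 possible splits of the arrays gave p = 0.667 for 5 member probe sets and p = 0.333, the smallest it can give, for the dim HERC6 probe set.

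**Figure D2:**
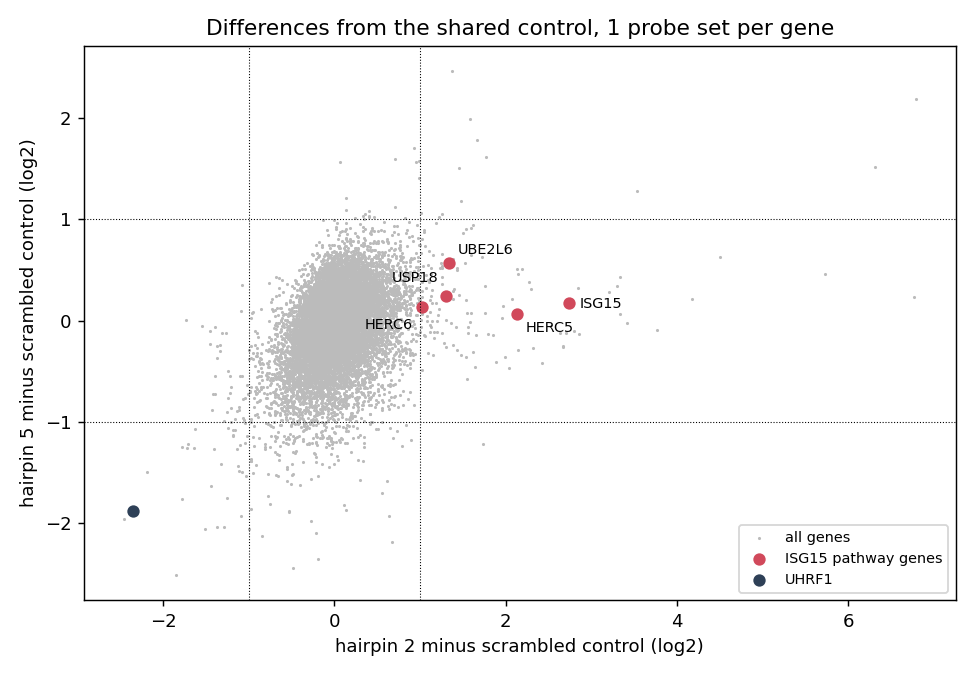
Difference from the scrambled control with hairpin 2 (horizontal axis, log2) against hairpin 5 (vertical axis, log2) for every gene by its brightest probe set, with members in red and UHRF1 in dark blue. Dotted lines mark 2-fold. The 5 members lie beyond the 2-fold line of hairpin 2 and between 0.06 and 0.57 on the axis of hairpin 5, and both axes share the control array.

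Other proteins that handle ISG15 were followed by the brightest probe set of each gene. This list of further ligases, carriers and ISG15-reactive proteases had 9 of 10 genes measured, of which 0 were at least 2-fold higher with either hairpin (background 0.728% of genes with hairpin 2 and 0.152% with hairpin 5). With hairpin 2, 1 was at least 2-fold lower, as were 0.364% of all genes, and with hairpin 5 also 1, as were 1.17% of all genes. ARIH1, a ligase reported to cooperate with UBE2L6, read 6.42 with hairpin 2 and 7.13 with hairpin 5, against 7.42 in the scrambled control. As the mean over its 6 probe sets ARIH1 differed by −0.20 with hairpin 2, so its call rests on 1 probe set. UBE2E2, a ubiquitin-conjugating enzyme, read 6.21 and 5.42 with hairpins 2 and 5, against 6.46 in the scrambled control. TRIM25, an interferon-inducible ligase for ubiquitin and ISG15, differed by 0.74 and −0.21. The list medians were 0.00 with hairpin 2 and −0.26 with hairpin 5.

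The relatives of the members in other conjugation systems were less than 2-fold from the control. Of 9 measured genes, 6 activating enzymes or their subunits and 3 HERC ligases, 0 were called in either direction with either hairpin, and the medians were 0.00 and −0.09. HERC1 and HERC4, other members of the HERC ligase family, differed by −0.26 and −0.39 with hairpin 2 and by −0.76 and −0.64 with hairpin 5. Among ubiquitin and the other ubiquitin-like modifiers, 0 of 6 measured genes were called. SUMO3 differed by 0.38 and 0.41, and UFM1, the modifier of the ufmylation system, by −0.35 and −0.71. Their median lay at 0.18 under hairpin 2 and at 0.07 under hairpin 5, against 0.00 for both over all genes.

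Genes of type I interferon signalling, which induces the pathway and which USP18 dampens, gave 2 of 8 measured at least 2-fold higher with hairpin 2 (0.728% of all genes) and 0 with hairpin 5 (0.152% of all genes). IRF9, the DNA-binding subunit of the complex that recognises the response element, read 8.88 with hairpin 2 and 5.95 with hairpin 5, against 6.22 in the scrambled control. IRF7, a transcription factor that amplifies interferon production, read 6.82 with hairpin 2 and 4.23 with hairpin 5, against 4.49 in the scrambled control. Both stood high on the hairpin 2 array and slightly under the control on the hairpin 5 array. The receptor subunits IFNAR1 and IFNAR2, of which IFNAR2 is the docking site of USP18, differed by 0.12 and 0.24 with hairpin 2 and by −0.18 and −0.19 with hairpin 5. The kinase JAK1 differed by −0.54 and −0.53. The list medians were 0.40 and −0.18.

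No interferon transcript stood out beside these values. All 10 measured interferon ligand genes read between 2.09 and 3.16 on every array, and 9 of the 10 lay below the array median on each. IFNB1 read 2.64 with hairpin 2 and 2.42 with hairpin 5, against 2.54 in the scrambled control. The largest differences of the list were −0.38 for IFNA21 with hairpin 2 and 0.35 for IFNE with hairpin 5. Such values may be background.

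Reported protein targets of ISG15 conjugation had 12 of 14 genes measured, and 2 were at least 2-fold higher with hairpin 2 (0.728% of all genes) and 0 with hairpin 5 (0.152% of all genes). These were interferon-inducible antiviral proteins: the kinase EIF2AK2 (1.85 and −0.15) and the RNA sensor RIGI (2.30 and 0.31). All 3 probe sets of RIGI were called with hairpin 2, with a mean of 2.67, whereas EIF2AK2 averaged 0.91 over its 3. The other 10 differed by less than 2-fold on their brightest probe sets. Among them were the replication clamp PCNA (0.11 and 0.18) and MX1, another interferon-inducible antiviral gene (0.39 and −0.07). EIF4E2 differed by 0.06 and −0.06 on its brightest probe set, but a dimmer one was called with hairpin 2 (1.25 and 0.60). Its remaining probe sets differed by 0.13 and −0.04 with hairpin 2. MX1 read between 2.93 and 3.39 on the 3 arrays, near the array medians. The list medians were 0.16 and −0.08.

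**Figure D3:**
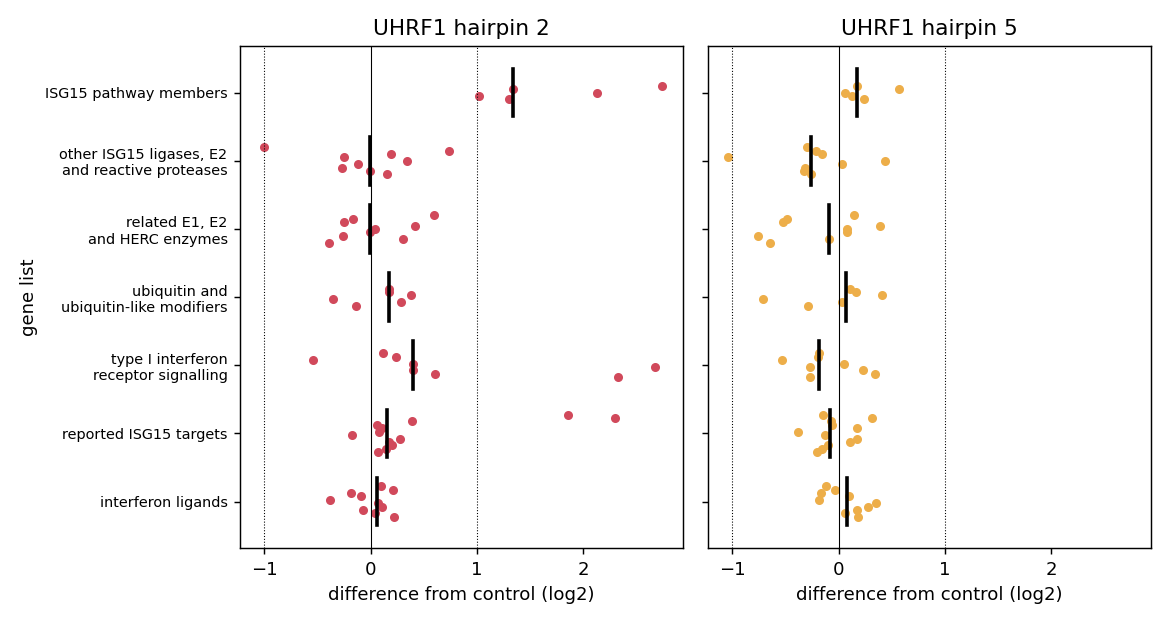
Difference from the scrambled control (horizontal axis, log2) for each measured gene of 7 gene lists (rows), with hairpin 2 on the left and hairpin 5 on the right; points are genes by their brightest probe set, black bars are list medians and dotted lines mark 2-fold. The row of ISG15 pathway members has a median of 1.34 with hairpin 2 and 0.17 with hairpin 5, and its hairpin 2 points all lie at or beyond 1.02.

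The chromosomal neighbours of the members were compared with them, taking the nearest measured protein-coding gene on each side in RefSeq order. HERC5 and HERC6 lie next to each other, and both were called with hairpin 2. Beyond HERC6, the phosphatase gene PPM1K differed by −0.07 with hairpin 2. On the far side of HERC5, past 3 genes with no probe set of their own, the imprinted gene NAP1L5 read 4.74 with hairpin 2 and 3.24 with hairpin 5, against 3.46 in the scrambled control. HES4, a transcriptional repressor beside ISG15, differed by 0.85 with hairpin 2 and −0.44 with hairpin 5, and AGRN on the other side by −0.29 and 0.00. The genes flanking UBE2L6, SMTNL1 and SERPING1, differed by −0.04 and −0.14 with hairpin 2. Beside USP18, TUBA8 differed by −0.16 with hairpin 2, and PRODH, past 5 genes with no probe set of their own, by 0.15. NAP1L5 was thus the 1 flanking gene of the measured members called with hairpin 2, where 0.728% of all genes were at least 2-fold higher. The flanking genes were added after the values of the members had been seen.

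**Figure D4:**
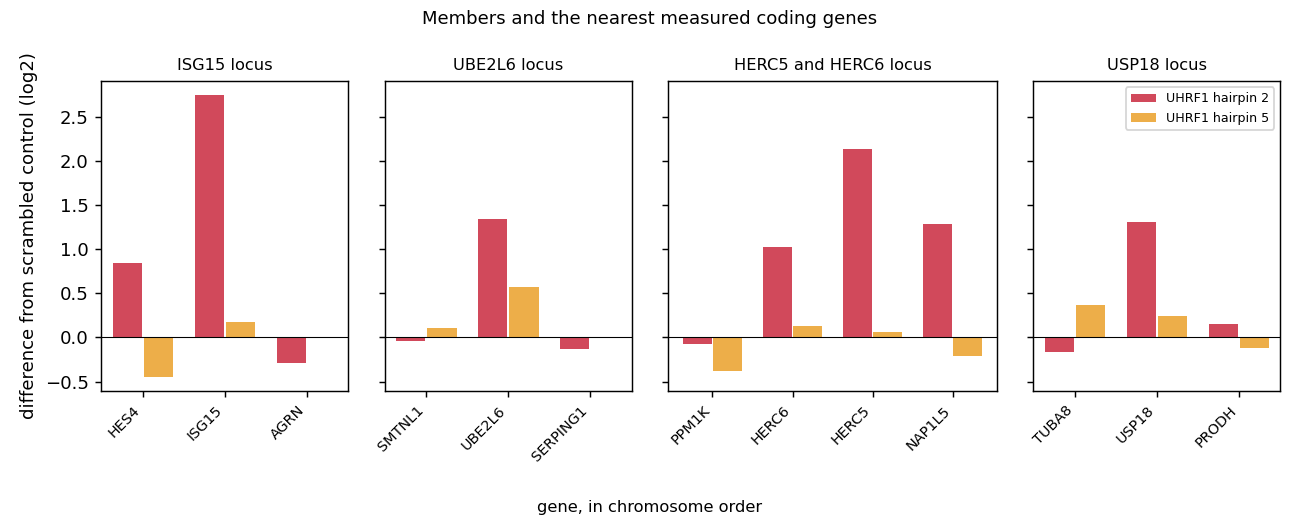
Difference from the scrambled control (vertical axis, log2) with hairpin 2 and hairpin 5 for measured members and the nearest measured coding gene on each side (horizontal axis, in chromosome order, spacing not to scale), 1 array per hairpin. With hairpin 2 the members and NAP1L5 exceed 1, and the other neighbours lie at or below 0.85.

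The genes outside the pathway whose pair of differences lay nearest to the members' median pair (1.34 with hairpin 2 and 0.17 with hairpin 5) were ranked by Euclidean distance over the 2 hairpins. The nearest 6 were CORO1A (1.39 and 0.21), ZBTB1 (1.39 and 0.29), LINC00205 (1.22 and 0.11), TEX19 (1.46 and 0.25), FXYD3 (1.19 and 0.17) and MAGEA4 (1.40 and 0.31). Their distances ran from 0.06 to 0.15, whereas the members themselves lay between 0.08 (USP18) and 1.41 (ISG15) from that median. As many as 11116 genes outside the pathway lay as near to it as ISG15 or nearer. MAGEA4 read 2.31 in the scrambled control, below the lower quartile of that array. With 3 arrays and a shared control, this likeness is a description of these arrays.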

How the data were processed

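The authors deposited log2 values per probe set. The submitters' processing notes name Affymetrix Expression Console and RMA. Versions and settings are not given in the sources used here, and log base 2 is an inference from how far the values reach (1.95 to 14.06 in the control). The number of arrays limits the precision.

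Of 54613 probe sets, 41091 were annotated to 1 gene, 1801 to several and 11721 to none. Entrez identifiers matched 41037 to RefSeq (GRCh38.p14), which changed 0 symbols.

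Arrays of the 2 hairpins, which have one source label in common, were fitted against the 1 control on all probe sets with limma 3.58.1 (lmFit, eBayes, under R 4.3.3). The fit has 1 residual degree of freedom, moderated to 3.63, and assumes that the control varies like the hairpins. It was tested on simulated data with a common noise level and the same shift in both hairpin arrays. Such a test does not bear on a difference seen with 1 hairpin. The p-values rest on the spread between the 2 hairpin arrays, moderated over all probe sets, and no spread of the control enters them. That spread may be technical or belong to the hairpins.

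The members and gene lists were chosen with earlier results of these data known. Named genes were UHRF1, the members, list genes called with either hairpin or else the 2 furthest from the control, and the 6 most alike. TRIM25, IFNAR1, IFNAR2, JAK1, IFNB1, EIF4E2, PCNA, MX1 and several cell type markers were named beyond that rule after their values were seen. Alternatives were a filter at the 40th percentile, median centring, cyclic loess, no probe sets ending in _x_at, 1 or the mean probe set per gene, other variance priors, other thresholds and leaving out each hairpin.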

Additional observations from a re-analysis of the deposited data

How the results depend on the processing

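With limma, 0 probe sets passed in every alternative tried (filter, scalings, probe set summaries, variance priors and an adjusted p of 0.1), with 533 to 2037 at an unadjusted p under 0.05. The fewest came from the fit on 19775 genes by their brightest probe set, and the most from the cyclic loess fit on 54613 probe sets. The mean differences of member probe sets kept their direction in all 46 combinations of probe set and alternative. All stayed short of the threshold in limma (adjusted p 0.999 to 1). Several alternatives, such as the variance priors and the filter, cannot change the mean difference of a probe set, so these combinations are not separate checks. At 3-fold, 2 rather than 5 member probe sets were higher with hairpin 2 than in the control. At 1.5-fold, 5 rather than 3 were higher with hairpin 2 than with hairpin 5. Without one hairpin the median difference over the members ranged from 0.15 (hairpin 5 alone) to 1.32 (hairpin 2 alone), with no residual degree of freedom and so no test. It was 0.86 with both, so the hairpin 2 array decides its size. No paired analysis was possible because both hairpins share 1 control array and the labels give no pairing. Dim probe sets, such as 1563659_at of HERC6, cannot be told from background without detection calls.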
